A study of Mus musculus with 6 samples.

Results

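The mitochondrial fatty acid oxidation enzymes are described here by 10 genes, Cpt1a, Cpt2, Acadm, Acadl, Acadvl, Hadha, Hadhb, Acaa2, Etfb and Etfdh, chosen by symbol from the platform annotation among 19938 genes with a single symbol. All 10 were on the array and all 10 passed a filter that kept the 9969 genes whose mean over the arrays was at or above log2 5.87. Total RNA was measured on Affymetrix whole-transcript arrays in 3T3-L1 cells, a clonal line of mouse fibroblasts that accumulate fat when induced to differentiate. There were 6 conditions with 1 array each. The adipocytes were differentiated with 0.5 mM adenine, with 0.5 mM AICAR or with no compound, and the undifferentiated fibroblasts had the same 3 media. Fibroblasts were exposed for 3 days in 10% calf serum. Adipocytes were exposed during 3 days of induction in 10% fetal bovine serum with dexamethasone (1 µmol/l), insulin (1 µg/ml) and IBMX (115 µg/ml), and were then kept for 3 days in insulin medium without the compound. Adenine is a purine base, and AICAR is a ribonucleoside whose phosphorylated form mimics AMP and activates the AMP-activated protein kinase.

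Beta-oxidation in the mitochondrial matrix shortens fatty acids by repeated cycles that release acetyl-CoA. Long-chain acyl groups enter through carnitine palmitoyltransferases, with Cpt1a on the outer membrane as the step that malonyl-CoA inhibits and Cpt2 on the inner membrane. Acyl-CoA dehydrogenases start each cycle (Acadvl for very long, Acadl for long and Acadm for medium chains). The trifunctional protein of Hadha and Hadhb and the thiolase Acaa2 complete it, and the electrons of the dehydrogenases pass through electron transfer flavoprotein (its beta subunit is Etfb) and its oxidoreductase Etfdh to ubiquinone. Many of these genes are known targets of the nuclear receptors PPAR and ERR and of their coactivator PGC-1alpha.

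The labelled cell states were checked against marker genes. Of 13 mature adipocyte markers, 13, 12 and 13 stood at or above the filter level in adipocytes with adenine, AICAR and no compound, against 6, 5 and 5 in the fibroblasts with those media, and their summed log2 signal was 127.9 to 145.1 in adipocytes and 79.3 to 81.5 in fibroblasts. Adipoq, the adiponectin gene, was at 12.18, 10.79 and 10.64 in those adipocytes, against 4.45, 4.05 and 4.42 in fibroblasts. All 10 fibroblast and preadipocyte markers were also at or above the filter level on each adipocyte array, with summed log2 signals of 87.9 to 103.9 in adipocytes and 107.6 to 115.2 in fibroblasts. Array medians over all probe sets lay between 5.41 and 5.49. Differentiation went together with the induction drugs, the change of serum and the later 3 days in insulin medium without the compound. These cannot be told apart from cell state. In bulk RNA fewer cells of a type and less RNA per cell cannot be told apart.

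RefSeq promoter windows (GRCm38.p6) were available for 9 of the 10 genes, and the 250 bases before the start site were read from each. Hadha and Hadhb are shown because they form a divergent pair. Their start sites lie 273 bases apart on chromosome 5 with Hadha on the minus strand at chr5:30154981-30155230 and Hadhb on the plus strand at chr5:30155003-30155252. The capitals mark the 228 bases that both windows hold, read on opposite strands.
Hadha: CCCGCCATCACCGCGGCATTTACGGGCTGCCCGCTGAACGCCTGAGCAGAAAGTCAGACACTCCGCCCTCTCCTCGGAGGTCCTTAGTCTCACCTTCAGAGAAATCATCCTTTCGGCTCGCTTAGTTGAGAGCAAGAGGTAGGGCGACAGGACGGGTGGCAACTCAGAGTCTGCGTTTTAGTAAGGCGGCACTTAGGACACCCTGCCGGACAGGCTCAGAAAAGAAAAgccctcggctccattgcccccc
Hadhb: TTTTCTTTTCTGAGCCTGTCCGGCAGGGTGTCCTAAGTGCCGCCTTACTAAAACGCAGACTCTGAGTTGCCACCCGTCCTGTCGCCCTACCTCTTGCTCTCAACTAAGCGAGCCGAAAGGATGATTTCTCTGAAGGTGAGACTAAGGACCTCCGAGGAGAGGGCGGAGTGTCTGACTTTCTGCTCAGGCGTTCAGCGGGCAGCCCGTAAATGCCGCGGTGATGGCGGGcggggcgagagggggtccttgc
Acadm and Cpt1a are shown because Acadm differed most between the cell states and Cpt1a departed from the other members. The Acadm window is at chr3:153944644-153944893 on the minus strand. That of Cpt1a is at chr19:3323051-3323300 on the plus strand, within the annotated span of the gene. Capitals mark the motif AGGTCA on either strand, the core that PPAR, RXR and ERR receptors bind.
Acadm: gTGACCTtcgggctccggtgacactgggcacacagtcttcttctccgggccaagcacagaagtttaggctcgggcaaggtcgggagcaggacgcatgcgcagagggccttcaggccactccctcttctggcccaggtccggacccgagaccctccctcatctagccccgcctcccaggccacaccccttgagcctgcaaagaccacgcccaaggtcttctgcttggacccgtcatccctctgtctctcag
Cpt1a: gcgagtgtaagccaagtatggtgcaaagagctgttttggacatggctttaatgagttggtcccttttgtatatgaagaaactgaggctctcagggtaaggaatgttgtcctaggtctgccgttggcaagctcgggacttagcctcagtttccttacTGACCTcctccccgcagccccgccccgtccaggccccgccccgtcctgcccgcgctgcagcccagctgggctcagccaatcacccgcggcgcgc
AGGTCA was found on either strand in 3 of the 9 member windows (Acadm, Acadvl and Cpt1a) and in 14% of 32851 RefSeq windows of the same length. Its direct repeat, 2 copies with any base between them as PPAR and RXR bind it, was in 0 of 9 and in 0.0335% of all windows, and the longer motif TCAAGGTCA was in 0 of 9 and in 0.387%. Other motifs were searched on either strand as well. GGGCGG was in 5 of 9 and in 32.7% of all windows, and CCAAT in 3 of 9 and in 33.8%. TNAAGGTCA, with N any base, was in 0 of 9 and in 1.14%. The motif of NRF1 is given below with Etfb and Etfdh. A match only describes these letters, and enhancers outside the windows were not searched.

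The question of the first comparison was how adipocytes differed from fibroblasts in each medium. The 9 enzyme genes other than Cpt1a had higher signal on each of the 3 adipocyte arrays than on any fibroblast array. That count of 9 of 10 stands beside 22.1% of all tested genes with every adipocyte array above every fibroblast array, and 19.9% the other way. Of the 10 genes 8 had their highest signal in adipocytes with adenine and 9 had their lowest in fibroblasts with AICAR. The shares of all tested genes with those extreme arrays were not counted.

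**Figure D1:**
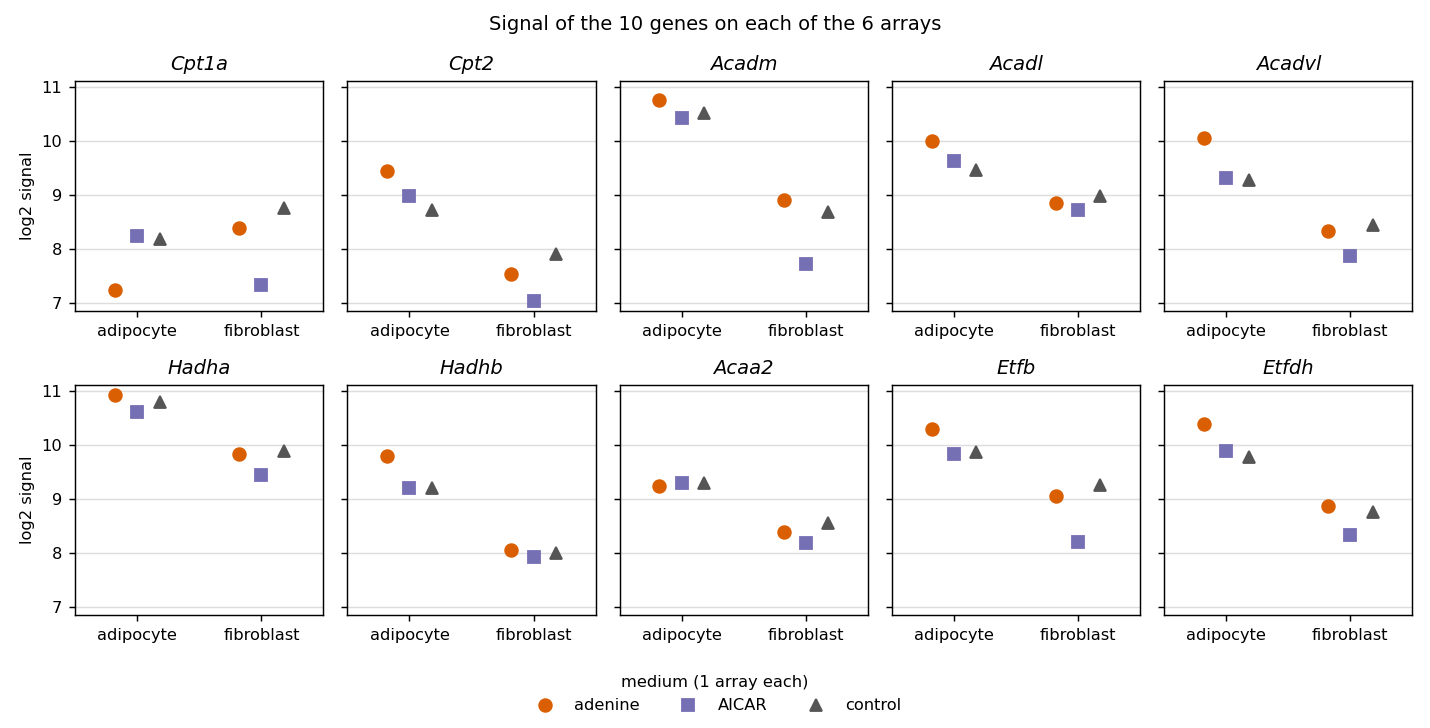
Log2 signal (vertical axis) of each of the 10 genes in adipocytes (left) and fibroblasts (right), with 1 point per array for adenine (circles), AICAR (squares) and control (triangles). Each gene except Cpt1a has its 3 adipocyte points above its 3 fibroblast points, and Cpt1a is lowest at 7.24 in adipocytes with adenine.

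Among the carnitine transferases the genes for the outer and the inner step behaved unlike each other. Cpt1a (probe set 10460157) read 7.24, 8.25 and 8.19 in adipocytes with adenine, AICAR and no compound, against 8.40, 7.34 and 8.77 in fibroblasts with the same media. Its highest array was the untreated fibroblasts, its 2 lowest were adenine adipocytes and AICAR fibroblasts, and the states overlapped. Cpt2 (10514933) read 9.45, 8.99 and 8.74 in those adipocytes, against 7.55, 7.05 and 7.91 in the fibroblasts, with a gap of 0.83 between the lowest adipocyte and the highest fibroblast array.

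The 3 acyl-CoA dehydrogenase genes were all higher in adipocytes. Acadm (10502951; chromosome 3, 153922353 to 153944643) read 10.76, 10.42 and 10.52 in adipocytes with adenine, AICAR and no compound, against 8.91, 7.72 and 8.70 in fibroblasts. It had the widest gap of the members between the states, 1.51. Acadvl (10387768; chromosome 11, 70010183 to 70015428) read 10.07, 9.32 and 9.28 in adipocytes and 8.33, 7.88 and 8.44 in fibroblasts, so that the adenine array stood apart among the adipocytes. Acadl (10355246; chromosome 1, 66830839 to 66863309) read 10.00, 9.64 and 9.47 in adipocytes and 8.86, 8.72 and 8.98 in fibroblasts, and its gap of 0.49 was the narrowest among the 9 genes that did not overlap.

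The genes for the last steps of the cycle were also higher in adipocytes. Hadha (10528929) read 10.92, 10.61 and 10.80 in adipocytes with adenine, AICAR and no compound, against 9.83, 9.45 and 9.89 in fibroblasts. Hadhb (10474379) read 9.79, 9.21 and 9.20 in adipocytes, against 8.06, 7.94 and 8.01 in fibroblasts. Both genes were highest in adenine adipocytes and lowest in AICAR fibroblasts, as most members were, and the fibroblast arrays spread less for Hadhb, over 0.13, than for Hadha, over 0.45. A second Hadhb probe set differed from the one used by at most 0.041 on any array. Acaa2 (10456699) read 9.25, 9.30 and 9.30 in adipocytes and 8.39, 8.20 and 8.56 in fibroblasts, and its adipocyte arrays lay closest together of all members.

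The electron transfer genes followed the same order of states. Etfb (10552418; chromosome 7, 43444072 to 43457800) read 10.30, 9.84 and 9.87 in adipocytes with adenine, AICAR and no compound, against 9.06, 8.22 and 9.27 in fibroblasts. Etfdh (10498837; chromosome 3) read 10.38, 9.88 and 9.78 in adipocytes, against 8.87, 8.33 and 8.77 in fibroblasts. The fibroblasts with AICAR were the lowest array for both. Their windows are shown because they were the only 2 of the 9 with the motif of NRF1, a regulator of mitochondrial genes (GCGCA and GCGC with any base between, either strand), which is in capitals below and which 3.74% of all windows hold. The Etfb window is at chr7:43443822-43444071 on the plus strand and the Etfdh window at chr3:79628768-79629017 on the minus strand.
Etfb: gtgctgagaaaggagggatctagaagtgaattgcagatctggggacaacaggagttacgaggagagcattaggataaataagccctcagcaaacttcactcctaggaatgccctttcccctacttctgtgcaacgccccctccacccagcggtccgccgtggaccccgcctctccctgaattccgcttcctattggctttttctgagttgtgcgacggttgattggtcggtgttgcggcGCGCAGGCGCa
Etfdh: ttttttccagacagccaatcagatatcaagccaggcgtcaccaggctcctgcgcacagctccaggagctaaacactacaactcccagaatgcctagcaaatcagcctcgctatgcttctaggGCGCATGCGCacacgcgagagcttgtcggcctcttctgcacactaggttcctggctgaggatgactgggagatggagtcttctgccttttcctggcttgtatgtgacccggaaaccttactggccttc

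As differences between 2 arrays, the members were higher in adipocytes by a median of 1.38 on the log2 scale with adenine, 1.36 with AICAR and 0.83 without compound, where all tested genes had medians of 0.03, 0.0020 and 0.02. At least 2-fold higher were 8 of 10 members with adenine (6.75% of all tested genes), 8 with AICAR (5.93%) and 3 without compound (2.88%). At 1.5-fold the untreated count was 8 (7.8% of all tested genes). At least 2-fold lower were 1 with adenine (8.47% of all tested genes), 0 with AICAR (4.6%) and 0 without compound (4.27%), and that 1 was Cpt1a. Acadm led with AICAR at 2.70 (6.51-fold) and without compound at 1.82 (3.53-fold), and only 0.903% of tested genes had a larger untreated difference. With adenine the largest values were those of Cpt2 (1.90, 3.74-fold), Acadm (1.85), Acadvl (1.74) and Hadhb (1.73). Cpt1a stood at -1.16 with adenine, at 0.91 with AICAR and at -0.57 without compound. Its direction thus differed between these single pairs of arrays, which was not tested.

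The state difference was tested in an additive limma model over the 6 arrays that held medium as a block. In it 9 of the 10 members rose in adipocytes at a Benjamini-Hochberg adjusted p under 0.05 over all tested genes and 0 fell, where 5.22% of all tested genes rose and 5.37% fell. Acadm rose by 2.12 (SE 0.22, limma adjusted p = 0.00944), Cpt2 by 1.56 (SE 0.26, limma adjusted p = 0.0246) and Hadhb by 1.40 (SE 0.17, limma adjusted p = 0.0122). The increase was 1.36 for Etfdh, 1.34 for Acadvl, 1.16 for Etfb, 1.05 for Hadha, 0.90 for Acaa2 and 0.85 for Acadl, with limma adjusted p between 0.0141 (Etfdh) and 0.0401 (Acadl). Cpt1a had a coefficient of -0.27 with a 95% interval of -1.24 to 0.70 (limma adjusted p = 0.698), which leaves room for a difference in either direction. The error of this model is the departure from additivity between conditions, with 2 residual degrees of freedom, and nothing measures the spread between cultures. Without the control pair 0 members and 0 of all genes passed in limma (2095 genes at an unadjusted p under 0.05), although the 9 coefficients stayed between 0.98 and 2.27. With the adenine pair left out 6 members passed, and likewise 6 with the AICAR pair left out.

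**Figure D2:**
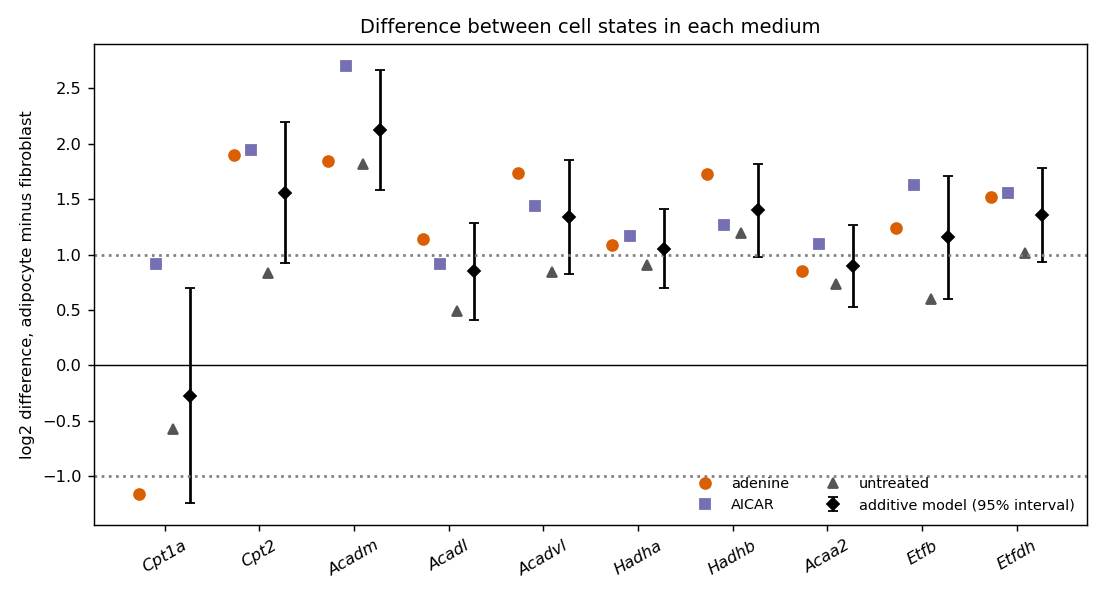
Log2 difference of adipocytes minus fibroblasts (vertical axis) for each gene with adenine (circles), AICAR (squares) and no compound (triangles), beside the additive model coefficient (diamonds, bars are the 95% interval); dotted lines mark 2-fold. The 9 others lie above 0 in every medium, and Cpt1a ranges from -1.16 with adenine to 0.91 with AICAR.

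The neighbouring genes of the pathway were counted in the same way, beside 5.22% of all tested genes that rose and 5.37% that fell. Of 20 tested genes for other mitochondrial beta-oxidation and branched-chain acyl-CoA enzymes, 12 rose in adipocytes and 0 fell in the additive limma model, led by the isovaleryl-CoA dehydrogenase Ivd, which rose by 1.35, and the hydroxyacyl-CoA dehydrogenase Hadh, which rose by 1.33. Of 7 genes of fatty acid activation and the carnitine shuttle, 1 rose (the carnitine acetyltransferase Crat, by 1.68) and 0 fell. Of 11 peroxisomal genes 3 rose, namely the sterol carrier Scp2 (1.76), the multifunctional enzyme Hsd17b4 (1.15) and the racemase Amacr (1.11). Of 13 regulators 4 rose, which were the corepressor Nrip1 (2.17), the secreted lipase inhibitor Angptl4 (2.06), Pparg (1.74) and its partner Rxra (1.19). Ppargc1a, which encodes PGC-1alpha, read 7.78, 6.97 and 7.32 in adipocytes with adenine, AICAR and no compound, against 8.29, 6.50 and 7.96 in fibroblasts, with no separation of the states. Of 23 genes in a list of the respiratory chain, the citrate cycle and Tfam, a transcription factor of mitochondrial DNA, 8 rose and 0 fell.

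The next comparisons asked what adenine and AICAR did in adipocytes, and the 2 share the same control array. With adenine 8 of the 10 members were above the control, as were 52.5% of all tested genes. The median of the members was 0.48 against 0.02 over all tested genes, and Cpt1a went the other way. None of the members reached 2-fold (1.24% of all tested genes passed it upward and 2.4% downward). At 1.5-fold, 4 members were higher (6.85% of all tested genes) and 1 lower (6.87%). Acadvl had the largest difference at 0.78 (1.72-fold), followed by Cpt2 at 0.72, Etfdh at 0.61, Hadhb at 0.59, Acadl at 0.53 and Etfb at 0.43. Acadm (0.24), Hadha (0.12) and Acaa2 (-0.06) lay closer to 0. Cpt1a was lower by 0.95 on the log2 scale with adenine in adipocytes (a value of -0.95, or 1.94-fold), and only 2.75% of tested genes had a lower value.

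In those adenine adipocytes genes of nearby steps were higher as well. All 21 measured genes for other mitochondrial beta-oxidation and branched-chain acyl-CoA enzymes were above 0, with a median of 0.53, led by the enoyl-CoA hydratase Echs1 (0.96) and Acad11 (0.81). All 23 genes of the list of respiratory chain, citrate cycle and Tfam were above 0, with a median of 0.63, and 0 of either list reached 2-fold. Of all tested genes 52.5% were above 0, with a median of 0.02. Crat was at 1.25 and Scp2 at 1.29, both past 2-fold, while the brain-type carnitine transferase Cpt1c was at -0.45 and the fatty acid transporter Slc27a1 at -0.45. Among the regulators the highest were Pparg (0.99) and Ppargc1b (0.92), which encodes PGC-1beta, and the lowest were Angptl4 (-0.55) and Pdk4 (-0.41), the kinase that inhibits pyruvate dehydrogenase. Markers moved on the same arrays. The summed log2 signal of the 13 mature adipocyte markers was 145.1 with adenine and 130.2 without, and that of the 10 fibroblast markers was 87.9 with adenine and 103.2 without. The part of such a shift in the values of the oxidation genes was not tested. Of 8 brown and beige markers 1, the fatty acid elongase Elovl3, was at or above the filter level with adenine, at 6.91 against 4.84 without, and 0 were without adenine. Ucp1, the uncoupling protein of brown fat, read 4.39 with adenine and 4.44 without.

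With AICAR in adipocytes the 10 enzymes differed little from the control. Their differences ranged from -0.18 (Hadha) to 0.26 (Cpt2), with a median of 0.02 against -0.01 over all tested genes. No member reached 1.5-fold, which 1.81% of tested genes passed upward and 1.86% downward (0.612% and 0.381% at 2-fold). Cpt1a was at 0.05, Acadm at -0.09, Etfdh at 0.11 and Acadl at 0.17. Per the labels, the last 3 days of adipocyte culture were without either compound.

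AICAR in fibroblasts went with lower signal of all 10 members, where 5232 of the 9969 tested genes were below the control. The median of the members was -0.51 against -0.03 over all tested genes. At least 2-fold lower were 2 of 10 members (3.69% of all tested genes) and 0 were at least 2-fold higher (1.7%), and at 1.5-fold 4 were lower (12.1%). Cpt1a read 7.34 with AICAR and 8.77 without, a difference of -1.43 (2.69-fold lower), below which lay 1.21% of tested genes. Etfb was at -1.05 (2.07-fold lower), Acadm at -0.98 and Cpt2 at -0.86. Smaller values were those of Acadvl (-0.57), Hadha (-0.45), Etfdh (-0.44), Acaa2 (-0.37), Acadl (-0.26) and Hadhb (-0.07), so that the members were spread over more than a 2-fold range.

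Of the other 21 mitochondrial oxidation genes 19 were also below 0 with AICAR in fibroblasts, with a median of -0.48, and 0 reached 2-fold. The lowest were Ivd at -0.82 and the propionyl-CoA carboxylase subunit Pccb at -0.81, and Gcdh stood at 0.17. Of 12 peroxisomal genes 9 were below 0 (median -0.31) with Hsd17b4 at -1.18 and Scp2 at -0.62. Of the 23 genes of respiratory chain, citrate cycle and Tfam 21 were below 0 (median -0.34). Of the 9969 tested genes 5232 were below 0, and the median over all tested genes was -0.03. The carnitine list was mixed, with Cpt1c at -0.82, Slc27a1 at -0.56 and the acyl-CoA synthetase Acsl4 at 0.85. Among the 17 measured regulators Ppargc1a (-1.46) and Angptl4 (-1.17) were the lowest and Pparg (0.96) and Nrip1 (0.67) the highest. Fibroblast and preadipocyte markers had a summed log2 signal of 107.6 with AICAR and 114.4 without, and that of the mature adipocyte markers was 81.5 with AICAR and 80.1 without. Within both lists single markers went both ways. The fibroblast list ran from Dlk1 at -2.45 to Postn at 0.39, and the adipocyte list from Dgat2 at -0.81 to Fabp4 at 1.65. Of 5 leukocyte markers the phagocyte gene Cd68 was at 7.44 with AICAR and 5.95 without, while Ptprc, the pan-leukocyte gene CD45, was at 4.21 with AICAR and 4.24 without.

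Adenine in fibroblasts went with small differences, from -0.37 (Cpt1a) to 0.21 (Acadm). The median of the members was -0.12 against -0.01 over all tested genes. Of the members 7 of 10 were below 0, as were 5193 of the 9969 tested genes. No member reached 1.5-fold (0.542% of all tested genes were higher by that much and 0.321% lower). At 2-fold, 0.0802% of all tested genes were higher and 0.0502% lower. Cpt2 was at -0.35, with 2.95% of tested genes lower, and Etfb was at -0.20. The control fibroblast array is shared with the AICAR comparison.

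**Figure D3:**
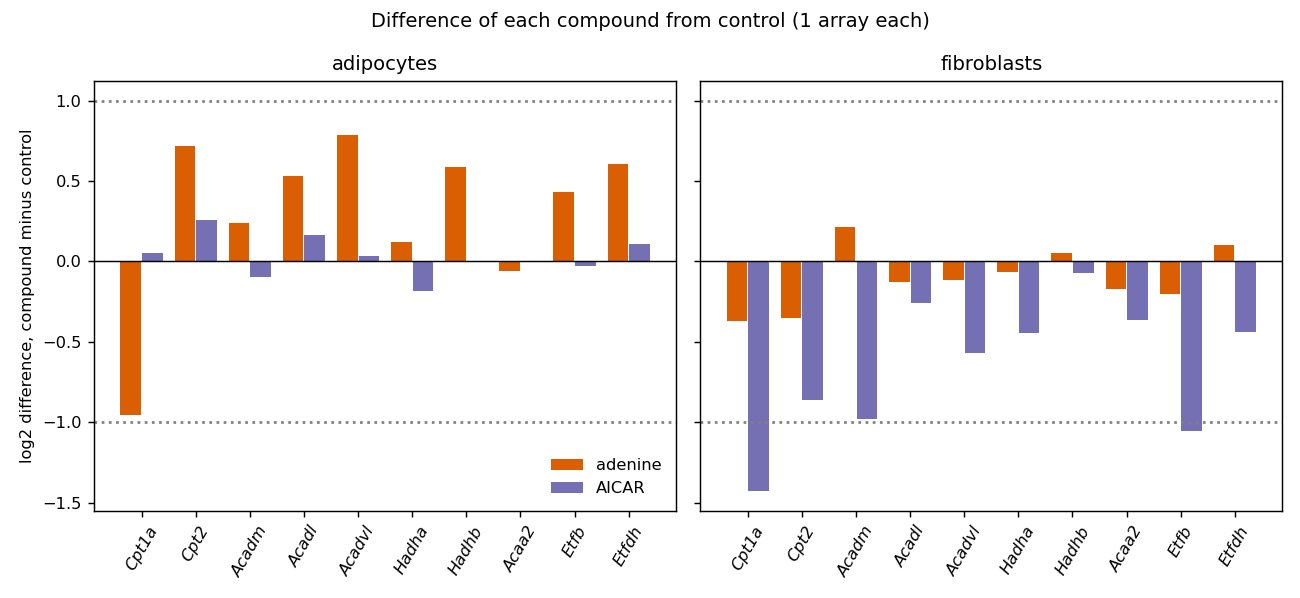
Log2 difference of adenine (orange) and AICAR (purple) minus control (vertical axis) for each gene in adipocytes (left) and fibroblasts (right), 1 array per bar end; dotted lines mark 2-fold. In fibroblasts all 10 AICAR bars lie below 0, down to -1.43 for Cpt1a, and in adipocytes the AICAR bars lie between -0.18 and 0.26.

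The effect of each compound in adipocytes minus its effect in fibroblasts was computed as a value without a test, since no residual degree of freedom is left. Only the adipocytes had 3 further days without the compound after exposure. That schedule cannot be told apart from cell state in these values. For AICAR this difference had a median of 0.57 over the members and 0.02 over all tested genes, and it was positive for all 10. It was 1.48 for Cpt1a, 1.12 for Cpt2, 1.02 for Etfb and 0.88 for Acadm, and 1.70% of tested genes lay above Cpt1a. Hadhb had the lowest value of the members, 0.075, and 45.1% of tested genes lay above it. For adenine the median was 0.52 over the members and 0.03 over all tested genes. Cpt2 (1.07) and Acadvl (0.90) were highest and Cpt1a was at -0.59, the only member below 0. The next lowest was Acadm at 0.026, and 50.5% of tested genes lay above it.

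Set against each other at the same dose, AICAR and adenine differed in both states. In fibroblasts all 10 members were lower with AICAR than with adenine, as were 5098 of the 9969 tested genes. The members had a median of -0.48 against -0.01 over all tested genes. At least 2-fold lower were 2 (3.89% of all tested genes), namely Acadm at -1.19 and Cpt1a at -1.06, and 0 were at least 2-fold higher (1.59%). On those fibroblast arrays the fibroblast markers summed to 107.6 with AICAR and 115.2 with adenine, and the mature adipocyte markers to 81.5 with AICAR and 79.3 with adenine. In adipocytes 8 of 10 were lower with AICAR than with adenine, from Acadvl at -0.75 to Hadha at -0.30. Of the 9969 tested genes 5465 were lower. The median of the members was -0.41 against -0.03 over all tested genes. Acaa2 was at 0.05, and Cpt1a at 1.01 was the 1 member at least 2-fold higher (2.21% of all tested genes), while 0 were at least 2-fold lower (1.21%) and 1, Acadvl, was at least 1.5-fold lower (5.38%). After median centring that value of Cpt1a was 0.99. On the same adipocyte arrays the summed log2 signal of the 13 mature adipocyte markers was 127.9 with AICAR and 145.1 with adenine, and that of the 10 fibroblast markers was 103.9 with AICAR and 87.9 with adenine. Single markers differed by more than any member, with Acta2, the smooth muscle actin gene, at 3.16 and Retn, the resistin gene, at -2.75. The part of these shifts in the values of the members was not tested.

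**Figure D4:**
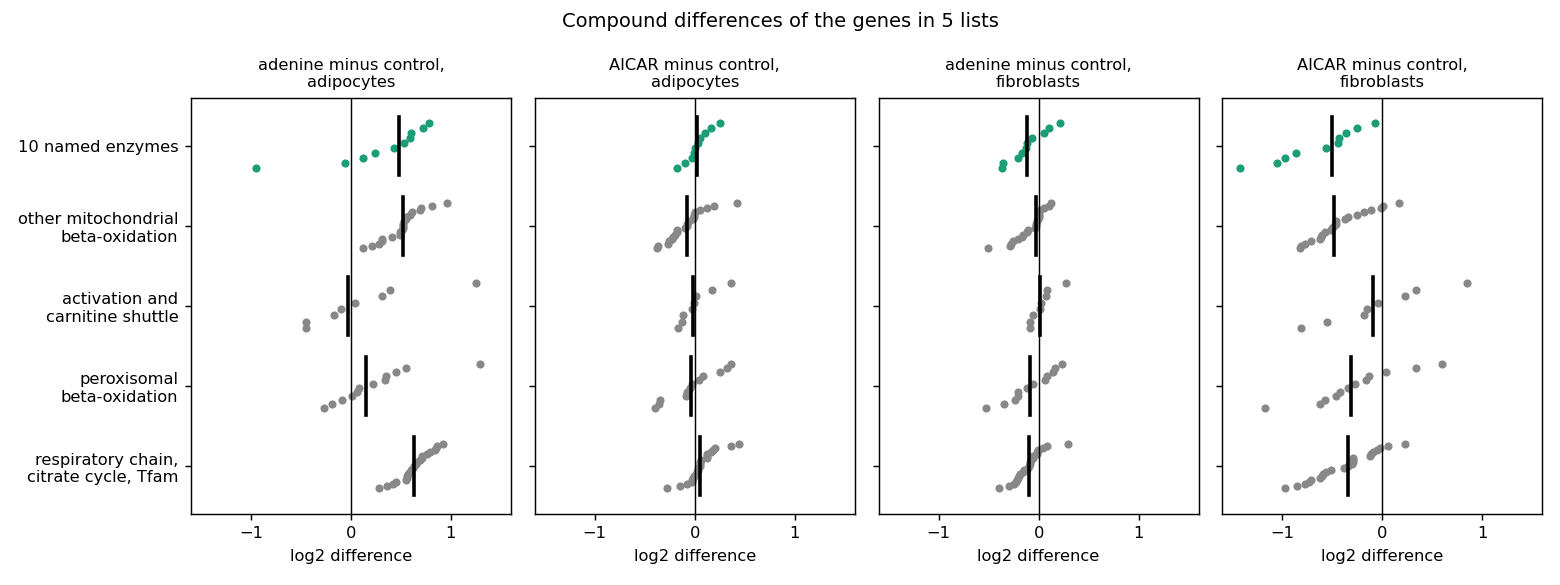
Log2 difference of compound minus control (horizontal axis) for the genes of 5 lists, 1 point per gene with the list median as a bar, in the 4 comparisons against a control. The 10 named enzymes have medians of 0.48 and 0.02 for adenine and AICAR in adipocytes and of -0.12 and -0.51 for adenine and AICAR in fibroblasts.

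The members were compared by their profile over the 6 arrays, centred on the mean of each gene. The root mean square distance from the mean profile of the members was 0.10 for Hadha, 0.13 for Etfb and 0.16 for Etfdh. It was 0.52 for Acadm and 0.86 for Cpt1a, with a median of 0.63 over all tested genes. Each member is part of that mean, which draws the mean towards it, so its distance and the 0.63 are not like for like. The profile of Acadm had wider differences than the mean, and that of Cpt1a ran another way. Searches for the nearest genes passed over predicted genes, clone-named genes and small RNAs, so a nearer gene of those kinds would not appear. Among the other tested genes left, the closest to the mean profile was Acad9 at 0.054, a relative of Acadvl that also helps to assemble respiratory complex I. It was followed by the dolichol kinase Dolk (0.059), the mitotic checkpoint kinase Bub1b (0.074), Ppwd1 (0.077) and Ttyh2 (0.079). The genes closest to Cpt1a, a search made after its values were seen, were Antxr2 (0.11), Ndn (0.14), Map1a (0.14), Egr1 (0.16) and Maged2 (0.16), and no other member was among them. Such likeness rests on 6 arrays.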

How the data were processed

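Per the labels' protocols, total RNA was biotin-labelled for whole-transcript arrays. The authors deposited a log2 value for each of 35556 probe sets and 6 arrays. Per the submitters' processing notes, Transcriptome Analysis Console (1.0.0.234) and the build mm10 were used. How background, normalization and probe summary were handled is not given in the sources used here, so values were taken as deposited. Groups came from the labels. Probe sets with a single symbol in the platform annotation (21789) were used, and the probe set with the highest mean was taken per gene. The 9969 genes whose mean reached the median gene mean were called tested.

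Log2 values of 2 arrays were subtracted for 9 comparisons and called at 2-fold, without a test, since each condition has 1 array. As the only test, limma 3.58.1 in R 4.3.3 fitted state with medium as a block, adjusted by Benjamini-Hochberg over all tested genes. The fit was also run on simulated data with additive means and a common noise level. Those data hold no departure from additivity, so they cannot show how the fit behaves where conditions depart from it. No interval for depth applies, and the number of arrays limits precision. The genes named are the 10 members, the 2 highest and 2 lowest of a described list, markers of the cell states, and 5 genes of nearest profile. The search for the nearest profile passed over predicted genes, clone-named genes and small RNAs. Others, such as the peroxisomal genes and regulators that passed in limma, were named after their values were seen. Members and lists were chosen with earlier results of these data known. Alternatives were quantile normalization, median centring, averaging of probe sets, a 1.5-fold threshold, other filters, an intensity trend, no medium block and leaving out each pair of arrays.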

Additional observations from a re-analysis of the deposited data

Results flagged for a closer look

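Cpt1a differed between AICAR and adenine in opposite directions in the 2 cell states. The log2 difference of AICAR minus adenine was 1.01 in adipocytes and -1.06 in fibroblasts, and the adipocyte value was 0.99, under 2-fold, after median centring. Each value rests on a single pair of arrays, and the difference between the states was not tested. Only the adipocytes had 3 further days without the compound after exposure, which cannot be told apart from cell state.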

How the results depend on the processing

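With a 1.5-fold threshold the number of members higher in untreated adipocytes than in untreated fibroblasts was 8, the number lower with AICAR in fibroblasts was 4, adenine in adipocytes had 4 higher and 1 lower, and 1 was lower with AICAR than with adenine in adipocytes. After median centring 0 members were at least 2-fold higher with AICAR than with adenine in adipocytes (Cpt1a at 0.99), Etfdh was at 0.94 between the untreated states, Acadm was at -1.01 with AICAR in fibroblasts and Acadl had a limma adjusted p of 0.0536. Of 270 member differences between 2 arrays under quantile normalization, median centring or averaged probe sets, 267 kept their side of the 2-fold threshold. Averaging could change only Hadhb, the 1 member with several probe sets, so its values for the other members were the same by construction. Without any filter the shares of all genes past 2-fold were lower (1.68% higher and 2.57% lower between the untreated states). In the additive model 342 genes rose and 263 fell with the 75th percentile filter, and 808 rose and 808 fell without the medium block, against 520 and 535 as reported. Leaving out each pair of arrays gave 0 to 6 members that rose, 0 to 390 genes that rose and 0 to 531 that fell in limma, with 0 in all of these without the control pair and 252 and 259 genes without the adenine pair. Fewer arrays entered those fits. The limma adjusted p of the 9 members that rose ranged from 0.00639 to 0.147 over the alternatives. Cpt1a turned to 0.17 without the adenine pair, and it was at -0.87 without the AICAR pair (limma adjusted p = 0.0664). The number of arrays and the unstated background correction limit the precision of every value.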
